A study of Rattus norvegicus with 9 samples.

Results

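Avp and Oxt, the genes of the hormones vasopressin and oxytocin, were followed in RNA of the supraoptic nucleus, a hypothalamic cell group of the rat, over 9 Affymetrix arrays. They are 2 of the 4736 genes that the platform annotation names by a single symbol. Of the 8799 probe sets in the deposited table, 4 carry one of these symbols alone, and all 4 are described: 3 for Avp (M64785_g_at, M25646_at and M64785_at) and 1 for Oxt (K01701_at). The arrays fall into 3 groups of 3. These are controls, rats dehydrated for 1 day and rats dehydrated for 3 days, all of them male Sprague Dawley animals between 10 and 12 weeks of age, per the labels. The labels name no transgene or drug, and do not say whether an array carries RNA of 1 animal or of a pool, so that p-values refer to the spread between arrays of a group, which may be technical. The titles number the arrays of each group with the letters a, b and c.

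Both hormones are made by large neurosecretory cells, the magnocellular neurons, whose axons end in the posterior pituitary. Each gene encodes a precursor that holds the peptide and a carrier protein, a neurophysin, and the Avp precursor also holds copeptin; the precursors are cut and amidated in secretory granules and released into the blood. Vasopressin acts on kidney receptors to retain water, oxytocin acts on uterus, mammary gland and, in the rat, on sodium excretion, and a loss of body water is a classical stimulus to the release of both. In these whole-tissue samples, a change in the number of such neurons sampled and a change in RNA per neuron cannot be told apart.

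In the RefSeq annotation of the GRCr8 assembly, Oxt and Avp are neighbours on chromosome 3 with 0 annotated genes between them, flanked by Mrps26 and Ubox5. Oxt lies on the plus strand and Avp on the minus strand, so that the genes point at each other. Both were found in the RefSeq promoter table. The 250 bases before each start are shown because the genes share a locus and are read here side by side; capitals mark matches, on either strand, to 4 short motifs. These were TGACG, the core of a cyclic AMP response element, TGANTCA, an AP-1 site, CANNTG, an E-box, and TGACCT, a nuclear receptor half-site.
Oxt, chr3:138235504-138235753, plus strand: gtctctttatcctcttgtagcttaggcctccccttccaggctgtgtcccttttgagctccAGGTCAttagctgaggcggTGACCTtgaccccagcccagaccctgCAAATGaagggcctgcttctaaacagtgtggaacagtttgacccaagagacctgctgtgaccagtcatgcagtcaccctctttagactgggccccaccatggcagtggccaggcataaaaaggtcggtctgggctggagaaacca
Avp, chr3:138248523-138248772, minus strand: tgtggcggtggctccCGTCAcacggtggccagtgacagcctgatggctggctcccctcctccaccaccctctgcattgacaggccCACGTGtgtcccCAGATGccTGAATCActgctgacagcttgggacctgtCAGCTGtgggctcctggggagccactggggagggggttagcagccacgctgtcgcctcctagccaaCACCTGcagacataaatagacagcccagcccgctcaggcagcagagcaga

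The Avp stretch held 1 match to TGACG, 231 to 235 bases before the start and on the opposite strand, 1 match to TGANTCA, 139 to 145 bases before it, and 4 matches to CANNTG. The Oxt stretch held 2 matches to TGACCT, at 166 to 171 and, on the opposite strand, at 185 to 190 bases before the start, and 1 match to CANNTG. No matches overlapped. Among 33469 RefSeq promoter stretches of the same length, 18.2 percent held TGACG, 6.34 percent TGANTCA, 65.5 percent CANNTG and 14.1 percent TGACCT. A match of letters is a description and not a site of binding.

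The values are MAS5 signals, in arbitrary units on a linear scale. The median signal of an array lay between 26.8 and 40.3. Control c and 1-day c stood apart: their brightest signals were 2105 and 2239, against 3867 to 6295 on the other 7 arrays. A sign of RNA quality, the 3' signal of Gapdh over its 5' signal, was 0.93 and 0.85 on those arrays and 0.89 to 1.55 on the others, and for beta-actin 1.07 and 1.48 against 0.74 to 1.43. The array 3-day c stood apart in the other direction. Its brightest signal was 6295, against at most 4854 on any other array. Its Gapdh ratio was 1.55, against at most 1.12 on any other. The hormone differences and ratios, the summary of other bright probe sets, the list counts and the nearest profiles are given with and without control c and 1-day c. Marker sums are given with all 9 arrays. Leaving out control c and 1-day c for the bright probe sets, the lists and the profiles was decided after seeing the data.

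After 3 days of dehydration the signal of the bright Avp probe set was 1.92 times that of control and that of Oxt 2.05 times, as ratios of mean signals. Neither passed the test across all probe sets, and the size for Oxt came mostly from 1 control array. After 1 day the same ratios were 1.14 for both genes, and the arrays of the groups overlapped, with 2.63 percent of all tested probe sets higher without overlap. The bright Avp probe set, M64785_g_at, read 2868, 2487 and 1765 on the control arrays a, b and c, 3189, 3292 and 1622 after 1 day, and 3871, 4108 and 5678 after 3 days. All 3 of the 3-day arrays lay above all 6 others. Against control alone, 4.73 percent of tested probe sets were higher with no overlap, and 40.7 percent of the other probe sets in the top 1 percent of mean signal. For M64785_g_at the lowest array of each other group was that of letter c. Group means were 2373 ± 560 in control, 2701 ± 936 after 1 day and 4553 ± 982 after 3 days (SD, n = 3).

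The Oxt probe set, K01701_at, read 3074, 2331 and 208.3 on the control arrays a, b and c, 2816, 3318 and 272.0 after 1 day, and 3910, 3219 and 4356 after 3 days. The 3-day arrays lay above the control arrays by a narrow margin and overlapped the 1-day arrays, and the signals of control c and 1-day c were far below all others. Group means were 1871 ± 1487, 2135 ± 1633 and 3828 ± 573 (SD, n = 3).

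The further Avp probe set M25646_at went to the floor of the scale on the same arrays. It read 1632, 834.5 and 8.2 in control, 653.0, 1790 and 0.10 after 1 day, and 2584, 1053 and 2739 after 3 days, for the letters a, b and c. The groups overlapped in every comparison, with means of 825 ± 812, 815 ± 906 and 2125 ± 932 (SD, n = 3). The last Avp probe set, M64785_at, never rose above 14.6 and had a median of 2.5 over the 9 arrays, so that it was left out of the tests as a dim probe set (mean signal under 23.1); it is the sole one of the 4 left out. Probe sets annotated to the same gene thus gave unlike readings, and only M64785_g_at stayed bright on all arrays.

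**Figure D1:**
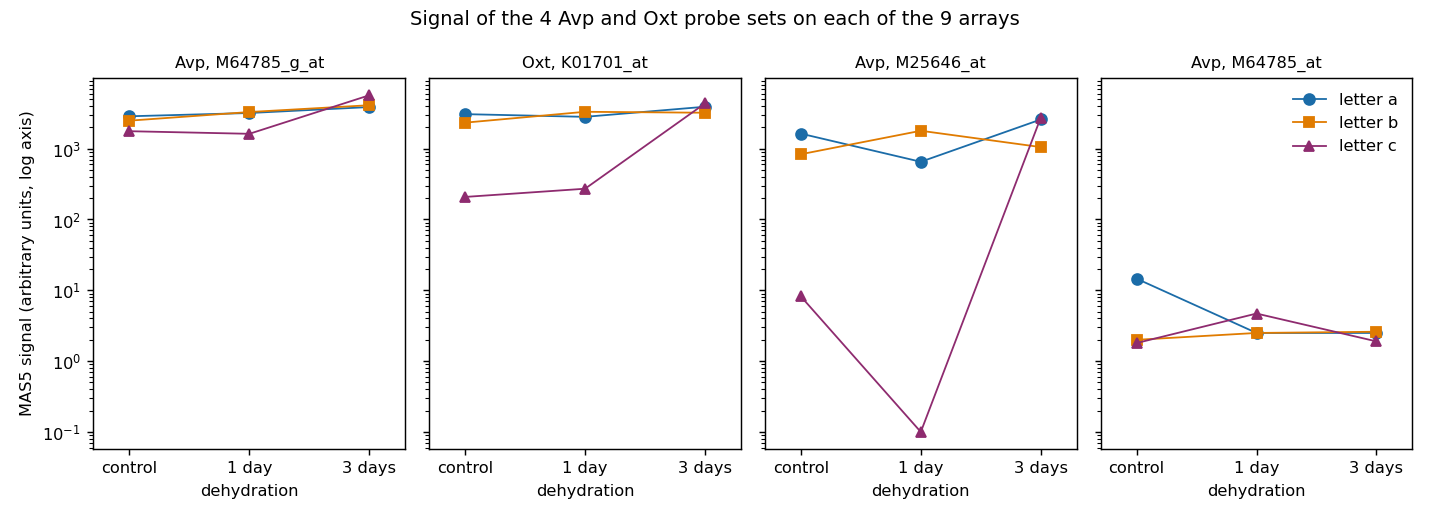
MAS5 signal on a log axis for the 4 probe sets in control, after 1 day and after 3 days of dehydration; each point is 1 array and lines join arrays of the same letter. M64785_g_at stays between 1622 and 5678, K01701_at falls to 208.3 and 272.0 and M25646_at to 8.2 and 0.10 on the letter c arrays of control and 1 day, and M64785_at stays at or under 14.6.

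A probe set's place in the order of signals on its own array does not depend on how the array was scaled. Among the 8740 probe sets that are not controls, M64785_g_at stood at places 23, 34 and 18 on the control arrays a, b and c, at 10, 16 and 58 after 1 day, and at 11, 5 and 2 after 3 days. It was thus nearer the top on each 3-day array than on any control array, while its 1-day places overlapped those of 3 days. How many other probe sets show the same order of places was not counted. K01701_at stood at places 15, 48 and 1289 in control, 27, 15 and 1032 after 1 day, and 9, 26 and 18 after 3 days, which overlapped with control. Places also depend on how strongly each probe set's probes bind, and are compared here only between arrays.

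Differences were tested with limma on log2(signal + 4), a scale on which changes of dim genes are understated, for the 3 members that passed the filter. Of these, 0 had an adjusted p under 0.05 after 3 days against control, where limma called 0 of 5247 probe sets (0 percent), and 90 had an unadjusted p under that value. The bright Avp probe set M64785_g_at differed by 0.95 ± 0.33 (log2 difference ± SE; limma unadjusted p = 0.016, adjusted p = 1.00), and was higher in all 9 pairs of a 3-day and a control array. Oxt differed by 1.72 ± 1.05 (limma unadjusted p = 0.13, adjusted p = 1.00), also higher in 9 of 9 pairs of arrays. M25646_at differed by 2.94 ± 2.16 (limma adjusted p = 1.00), a size that depends on the pseudocount because it sets signals near 0 against bright ones. Both M64785_g_at and K01701_at were higher after 3 days with no overlap of the groups, a pattern seen in 4.73 percent of all tested probe sets. An exact two-sided permutation test over the 6 arrays gave p = 0.1 for each, which is the smallest p that 3 arrays against 3 allow, and p = 0.2 for M25646_at.

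Within each letter, all 3 tested probe sets were higher after 3 days than in control. Of the 86 other probe sets in the top 1 percent of mean signal, 63, 66 and 86 were also higher within a, b and c. The Avp probe set M64785_g_at differed by 0.43, 0.72 and 1.68 on the log2 scale within the letters a, b and c, and Oxt by 0.35, 0.46 and 4.36. M25646_at differed by 0.66 and 0.33 within a and b, and by 7.81 within c, where its control signal was 8.2, so that this size depends in part on the pseudocount. Letter c gave the largest difference for each of the 3.

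Without the control array of letter c, the 3-day difference of Oxt was 0.50 ± 0.88 in place of 1.72, and that of M25646_at 0.74 ± 2.01 in place of 2.94. M64785_g_at moved less, to 0.75 ± 0.35. With the 1-day array of letter c left out as well, the 3 probe sets stood near each other with smaller errors: M64785_g_at at 0.75 ± 0.23, Oxt at 0.50 ± 0.23 and M25646_at at 0.74 ± 0.55. None passed with these arrays left out (limma adjusted p = 1.00 for each). The 3-day array of letter c held the highest signal of each of the 3 probe sets. With only that array left out, M64785_g_at stood at 0.78 ± 0.36 (limma unadjusted p = 0.058) and Oxt at 1.63 ± 1.24. M25646_at then stood at 2.69 ± 2.55.

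**Figure D2:**
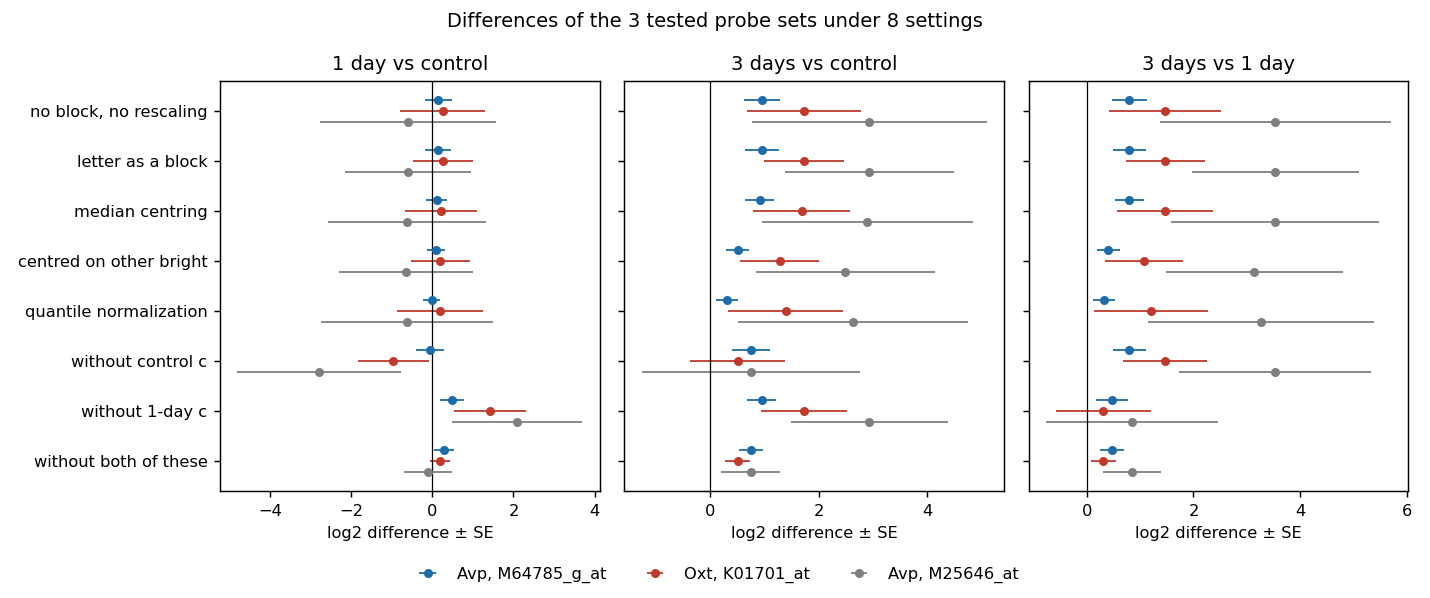
Log2 difference ± SE from limma of the 3 tested probe sets in each comparison, under 8 settings; points right of the line at 0 are higher in the later group. At 3 days against control all points are above 0, and those of Oxt and M25646_at fall from 1.72 and 2.94 to 0.50 and 0.74 without the control array of letter c.

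After 1 day of dehydration, none of the 3 tested probe sets differed from control by more than its standard error. M64785_g_at stood at 0.15 ± 0.33, Oxt at 0.25 ± 1.05 and M25646_at at -0.60 ± 2.16 (log2 difference ± SE; limma adjusted p = 1.00 for each). Limma called 0 of 5247 probe sets after 1 day (0 percent), and 53 had an unadjusted p under 0.05. M64785_g_at and Oxt were each higher in 6 of 9 pairs of arrays and M25646_at in 4 of 9 (exact two-sided permutation p = 0.6, 0.6 and 0.7). The letters went different ways: M64785_g_at differed by 0.15, 0.40 and -0.12 within a, b and c, Oxt by -0.13, 0.51 and 0.38, and M25646_at by -1.32, 1.10 and -1.57. No probe set had the same sign in all 3 letters. The sign of the Oxt value depended on single arrays, at -0.97 with control c left out and 1.41 with 1-day c left out, and without both it was 0.19 ± 0.25. M25646_at turned from -2.79 without control c to 2.09 without 1-day c, and M64785_g_at from -0.05 to 0.48; without both arrays they stood at -0.11 ± 0.60 and 0.28 ± 0.25.

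Between 1 and 3 days, M64785_g_at was the 1 tested member whose arrays did not overlap. M64785_g_at was 0.80 ± 0.33 higher after 3 days (limma unadjusted p = 0.034, adjusted p = 1.00; exact permutation p = 0.1), and higher in 9 of 9 pairs of arrays. Limma called 0 of 5247 probe sets (0 percent), with 96 at an unadjusted p under 0.05, and 3.05 percent of tested probe sets were higher after 3 days with no overlap. Oxt stood at 1.47 ± 1.05 and M25646_at at 3.53 ± 2.16, each higher in 8 of 9 pairs (limma adjusted p = 1.00; exact permutation p = 0.2 for each). Within the letters a, b and c the difference was 0.28, 0.32 and 1.81 for M64785_g_at, 0.47, -0.04 and 3.98 for Oxt, and 1.98, -0.76 and 9.39 for M25646_at. The last of these sets a signal of 0.10 against 2739, so that its size is given by the pseudocount of 4 and is not a measured one. Within letter b, Oxt and M25646_at were thus lower after 3 days than after 1 day. Without the 1-day array of letter c the differences were 0.47 ± 0.30, 0.31 ± 0.89 and 0.85 ± 1.61 for M64785_g_at, Oxt and M25646_at. With only 3-day c left out, M64785_g_at stood at 0.63 ± 0.36 (limma unadjusted p = 0.11). A test over all 3 groups together called 0 of 5247 probe sets (0 percent; 55 at an unadjusted p under 0.05); limma's unadjusted p of this F test was 0.033 for M64785_g_at, 0.25 for Oxt and 0.26 for M25646_at, and the adjusted p was 1.00 for each.

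M64785_g_at and K01701_at lie in the top 1 percent of mean signal, and M25646_at and M64785_at do not. Of the 86 other probe sets in the top 1 percent of mean signal, 78 were higher after 3 days than in control, with a median log2 difference of 0.49, while over all 5247 tested probe sets 2715 were higher and the median was 0.02. Of those 86, 40.7 percent were higher after 3 days with no overlap of the groups, the pattern seen for M64785_g_at and Oxt. At 0.95, M64785_g_at was exceeded by 8 of the 86, and Oxt, at 1.72, by 0. At 1 day the 86 had a median of 0.03, 50 were higher, and 0 percent were higher with no overlap. Between the times 82 were higher with a median of 0.47, 25.6 percent did not overlap, and 8 exceeded M64785_g_at. The shift of the 86 was much larger in letter c: their median differences between 3 days and control were 0.17, 0.25 and 1.14 within a, b and c. Without the control array c, 70 of the 86 were higher after 3 days and the median fell from 0.49 to 0.30, a change of over 1.5 times; 40.7 percent did not overlap, as before, against 8.29 percent of all tested probe sets. With that array left out, M64785_g_at was exceeded by 2 of the 86 and Oxt by 8. With 1-day c left out, the median between the times fell from 0.47 to 0.23. The part of this shift in the hormone values was not tested, but their size relative to it was measured. With each array centred on the median of these 86, which moved the median of all tested probe sets to -0.43, M64785_g_at stood at 0.50 ± 0.22, Oxt at 1.28 ± 0.73 and M25646_at at 2.49 ± 1.65 after 3 days against control (limma adjusted p = 0.74 for each). After quantile normalization M64785_g_at stood at 0.30 ± 0.21, a change of over 1.5 times, and Oxt at 1.39 ± 1.06. Between 1 and 3 days M64785_g_at stood at 0.41 ± 0.22 with the centring and at 0.32 ± 0.21 after quantile normalization, in place of 0.80.

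**Figure D3:**
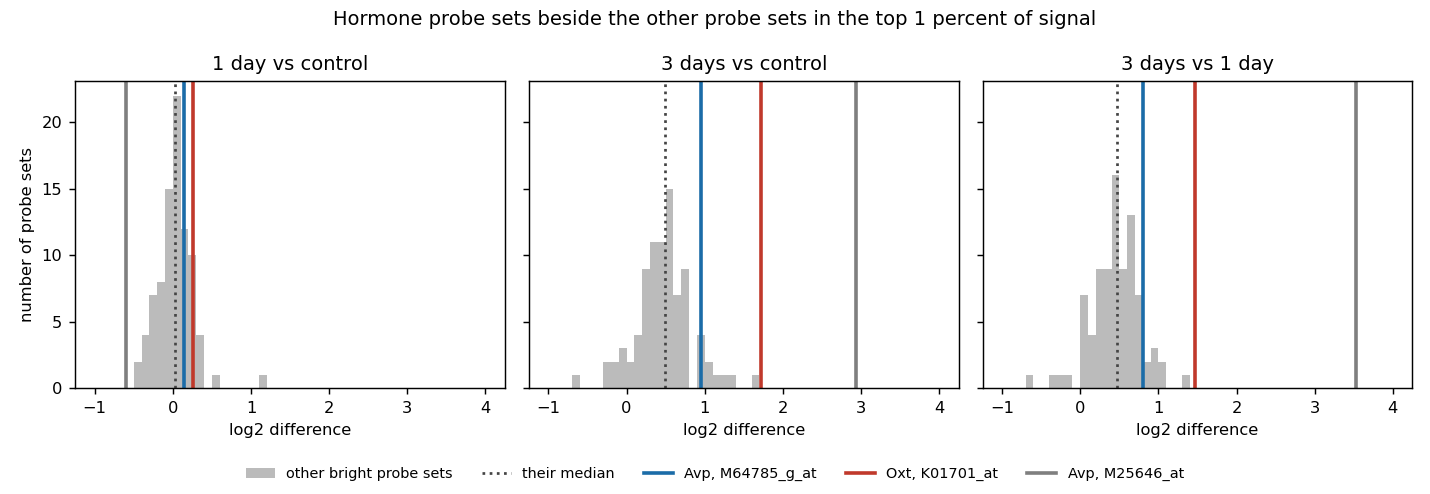
Log2 differences of the 86 other probe sets in the top 1 percent of mean signal (grey bars, number of probe sets per step of 0.1; dotted line, their median) beside the 3 tested hormone probe sets (coloured lines). At 3 days against control the median is 0.49 and M64785_g_at, at 0.95, is inside the range of the bars, which ends at 1.66, while Oxt at 1.72 and M25646_at at 2.94 are beyond it.

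On control c and 1-day c, Oxt and M25646_at were low far beyond the bright class. The median log2(signal + 4) of the other bright probe sets was 10.52 and 10.60 on those arrays, against 11.20 to 11.61 on the other 7. M64785_g_at had 10.79 and 10.67 there, against 11.28 to 12.47 elsewhere. Oxt had 7.73 and 8.11, against 11.19 to 12.09. Of the 5247 tested probe sets, 480 (9.15 percent) were lower on both arrays than on each of the other 7. At most 0.125 of the lowest other array, counting signal + 4, was reached on both by 2 probe sets, K01701_at and M25646_at; at most 0.25 of it was reached by 4, which adds a probe set of the apolipoprotein gene Apoe (X04979_at) and one of the olfactory receptor gene Olr1867. These limits were chosen after the values were seen. The 6 other magnocellular markers measured were not low as a sum: on control c they summed to 1814, the highest of its group, and on 1-day c to 1899, between the other arrays of its group, although Cck, at 12.2, was lowest on control c. Pdyn, which encodes the dynorphin precursor of vasopressin neurons, read 650.5 there against 642.8 and 528.7 on control a and b, and Vgf, a granule protein, 570.0 against 477.1 and 583.9. On 1-day c they read 709.7 and 666.3, against 939.8 and 448.4 for Pdyn and 662.9 and 642.1 for Vgf on 1-day a and b. Pdyn and Vgf were the brightest of the 6 and weigh most in these sums. Gal was the highest of its group on control c, at 311.9 against 187.7 and 157.0. On 1-day c Gal was the lowest, at 199.9 against 273.9 and 205.2. Scg2 and Pou3f2 lay between the other arrays of the group on both, as did Cck on 1-day c.

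Ratios between the hormone probe sets within an array, which scaling does not alter apart from the pseudocount, did not separate the groups. The log2 ratio of M64785_g_at to the Oxt probe set was -0.10, 0.09 and 3.06 on control a, b and c, 0.18, -0.01 and 2.56 after 1 day, and -0.01, 0.35 and 0.38 after 3 days. On the 7 arrays other than control c and 1-day c it lay between -0.10 and 0.38. Its change from control to 3 days was -0.78 (exact two-sided permutation p = 0.9) and turned to 0.24 without control c. The log2 ratio of M25646_at to M64785_g_at was -0.81 and -1.57 on control a and b but -7.18 on control c, and -2.28, -0.88 and -8.63 after 1 day. The values of -7.18 and -8.63 rest on M25646_at signals of 8.2 and 0.10. The size of the first depends in part on the pseudocount, and that of the second is set by it. The 1-day change of this ratio was -1.24 with a pseudocount of 1 and -0.41 with one of 16. At 3 days it was -0.58, -1.96 and -1.05. Its change from control to 3 days was 1.99 (exact permutation p = 0.6), and -0.0062 without control c. The ratio of M25646_at to Oxt changed by 1.21 from control to 3 days (exact permutation p = 0.3), and by 0.24 without control c. Over the 9 such tests, 3 ratios in 3 comparisons, the lowest p was 0.2 and the adjusted p was 0.9 for each. A p of this size does not show that the genes changed alike; without control c and 1-day c, the difference between the 3-day changes of M64785_g_at and Oxt was 0.24 on the log2 scale.

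**Figure D4:**
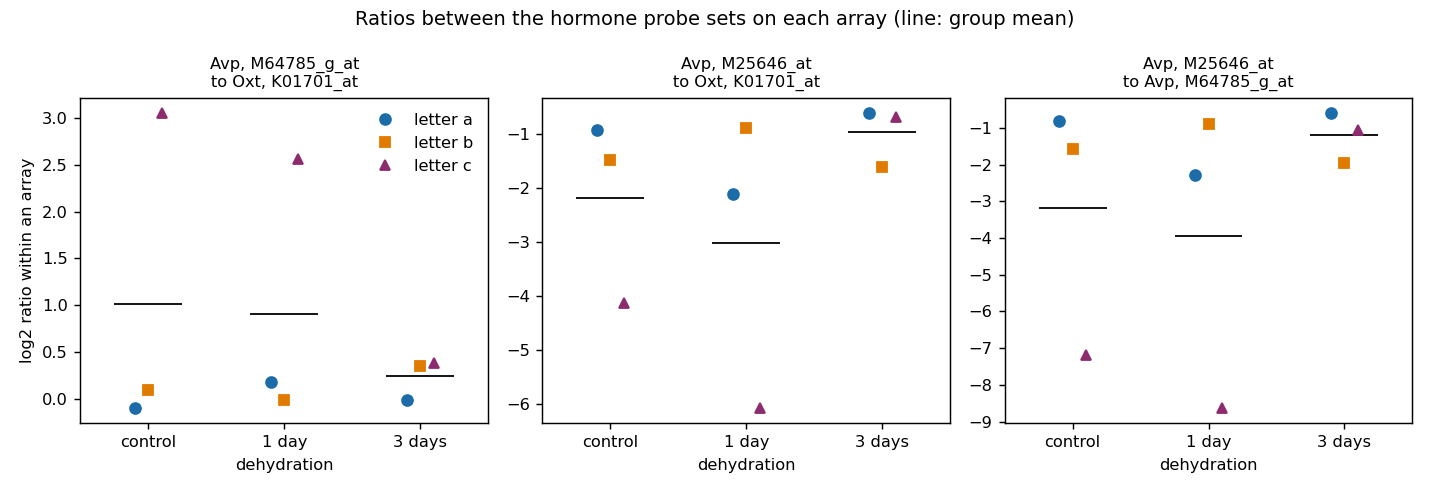
Log2 ratio within each array between pairs of hormone probe sets, by group; each point is 1 array, marked by its letter, and the line is the group mean. Control c and 1-day c stand at 3.06 and 2.56 for M64785_g_at to K01701_at, and at -7.18 and -8.63 for M25646_at to M64785_g_at. The size of -7.18 depends in part on the pseudocount and that of -8.63 is set by it.

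The genes that serve the hormones were described from fixed lists, each gene by its brightest probe set. Of 10 genes of receptors and peptide clearance, 6 were tested; the vasopressin receptors Avpr1a and Avpr1b and the oxytocin receptor Oxtr had mean signals under the filter. At 3 days 5 of the 6 stood higher than in control and 1 lower, with a median of 0.07, and 0 passed in limma; without the 2 c arrays 4 stood higher and 2 lower (median 0.04). The gene of oxytocinase, Lnpep, which cleaves both hormones, had mean signals of 16.6 ± 7.6 in control, 42.3 ± 24.9 after 1 day and 37.8 ± 10.2 after 3 days (SD, n = 3), a difference of 1.09 ± 0.51 after 1 day and 1.06 ± 0.51 after 3 days. Its control mean is under the filter of 23.1, so that Lnpep passed only through the groups in which it was higher. The peptidase genes Thop1 and Prep stood at 0.09 ± 0.26 and -0.45 ± 0.32 after 3 days.

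All 9 genes of prohormone processing on the array were tested, of 11 listed. At 3 days 8 stood higher and 1 lower (median 0.27), and after 1 day 7 higher and 2 lower, the median being 0.10; 0 passed in limma at either time. Without the 2 c arrays the 3-day count was 7 higher and 2 lower, and the median fell to 0.09. Pam, whose enzyme gives both peptides their terminal amide, had mean signals of 956 ± 227, 1224 ± 145 and 1226 ± 257 in control, after 1 day and after 3 days (SD, n = 3), and stood at 0.36 ± 0.27 after 3 days. The convertase gene Pcsk2 stood at 0.39 ± 0.28 and Scg5, the chaperone of that convertase, at 0.27 ± 0.26. Of 12 tested genes of the granule matrix and release, 5 stood higher and 7 lower after 3 days (median -0.02), and 0 passed, with 6 and 6 without the 2 c arrays; Vgf stood at 0.42 ± 0.24, the granin Chgb at -0.57 ± 0.30 and the fusion protein gene Snap25 at 0.18 ± 0.22.

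The list for transcription and mRNA handling of the hormone genes gave 18 tested genes of 30 listed, all 18 of them transcription factors or nuclear receptors; the RNA-binding protein gene Caprin2 was not analysed here. Of the 18, 14 stood higher and 4 lower after 3 days, with a median of 0.09. In limma 0 passed, and without the 2 c arrays 10 stood higher and 8 lower. Pou3f2, needed for magnocellular neurons to form, had mean signals of 67.5 ± 19.1, 37.5 ± 32.5 and 52.1 ± 23.9 (SD, n = 3) and stood at -1.03 ± 0.53 after 1 day and -0.41 ± 0.53 after 3 days. The AP-1 member Fosl2 stood at 0.78 ± 0.41 and 0.50 ± 0.41, and the orphan nuclear receptor Nr4a3 at 0.65 ± 0.72 and 1.08 ± 0.72. The control mean of Nr4a3, 18.2, is under the filter, so that it passed only through the dehydrated groups. Peptides that magnocellular neurons make besides the hormones, with Th, gave 11 tested genes of 16. At 1 day 10 stood higher and 1 lower (median 0.25), and after 3 days 7 higher and 4 lower (median 0.22), with 0 passing and 3 and 2 at a limma unadjusted p under 0.05, against 53 and 90 of all 5247. Without the 2 c arrays 10 stood higher after 1 day (median 0.46) and 9 after 3 days (median 0.34). Of all 5247 tested probe sets, 2763 stood higher after 1 day and 2715 after 3 days, each with a median of 0.02. Without the 2 c arrays these counts were 2746 (median 0.02) and 2509 (median -0.02). Of 3-day arrays, Cck read 82.6, 72.0 and 37.8, above its 19.5, 23.5 and 12.2 in control, a pattern seen in 4.73 percent of tested probe sets. Th and Edn3 stood at 0.75 ± 0.27 and 0.98 ± 0.50 after 3 days. The control means of Cck and Edn3, 18.4 and 19.7, are under the filter, so that both passed only through groups in which they were higher. Of 8 tested peptide hormone genes of other cells, 4 stood higher and 4 lower at both times, with medians of -0.00023 and 0.01 and 0 passing; without the 2 c arrays 8 stood higher after 1 day and 5 after 3 days. Sst counts in this list and in that of magnocellular peptides, and Sst, with Npy and Trh of the latter, is also among the markers of neighbouring hypothalamus. Lhb, Tac1 and Cga stood at 0.64 ± 0.36, -0.47 ± 0.33 and 0.06 ± 0.70 after 3 days.

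The profiles nearest to the bright Avp probe set over the 9 arrays were those of other very bright probe sets. Likeness was the root mean square difference between log2(signal + 4) profiles, each centred on its own mean, over 4352 probe sets with 1 symbol; the profile of M64785_g_at itself had a root mean square of 0.54. The nearest were Gnas, the stimulatory G protein subunit, at 0.12, Prkar1b, a regulatory subunit of protein kinase A, at 0.15 and Aldoc, an aldolase of astrocytes, at 0.16. Gnas read 2458, 2536 and 1414 in control and 3186, 3127 and 4448 after 3 days. For Oxt, with a root mean square of 1.58, the nearest were Apoe (X04979_at) at 0.54, Or2z2, an olfactory receptor gene, at 0.57 and Tbxa2r, the thromboxane receptor, at 0.62. Apoe by this probe set read 2381, 2022 and 500.6 in control, 2474, 2208 and 438.8 after 1 day, and 3309, 3125 and 4295 after 3 days. Another Apoe probe set, S76779_s_at, which is the one in the astrocyte sum below, was not low to that extent. It read 1862 on control c and 1847 on 1-day c, against 2277 to 4678 on the other arrays. Of the hormone probe sets, M64785_g_at was at place 110 and M25646_at at place 3267 in likeness to Oxt. In likeness to M64785_g_at, Oxt was at place 4159 and M25646_at at 4352, the last. In likeness to M25646_at, Oxt was at place 1, at 1.75, followed by Or2z2 and Tbxa2r at 2.08 and 2.17, and M64785_g_at was at 254. All of these profiles share the same arrays, and those near to Oxt are low on control c and 1-day c. Over the 7 other arrays Apoe (X04979_at), at 0.11, was nearest to M64785_g_at, followed by Gnas at 0.13 and Psmd4, a proteasome subunit. Gnas was thus among the 3 nearest with and without the c arrays. For Oxt the nearest was then Calb2, the calcium-binding protein calretinin, at 0.05. Over these 7 arrays Oxt was at place 16 in likeness to M64785_g_at and M64785_g_at at place 40 in likeness to Oxt. For M25646_at, with a root mean square of 0.74, the nearest were then Tbp at 0.24, Agtr1a at 0.30 and Slc2a5 at 0.41. In likeness to M25646_at, Oxt went from place 1 to place 41, at 0.52, and M64785_g_at was at place 147. M25646_at was at place 2439 in likeness to Oxt and 2548 in likeness to M64785_g_at.

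**Figure D5:**
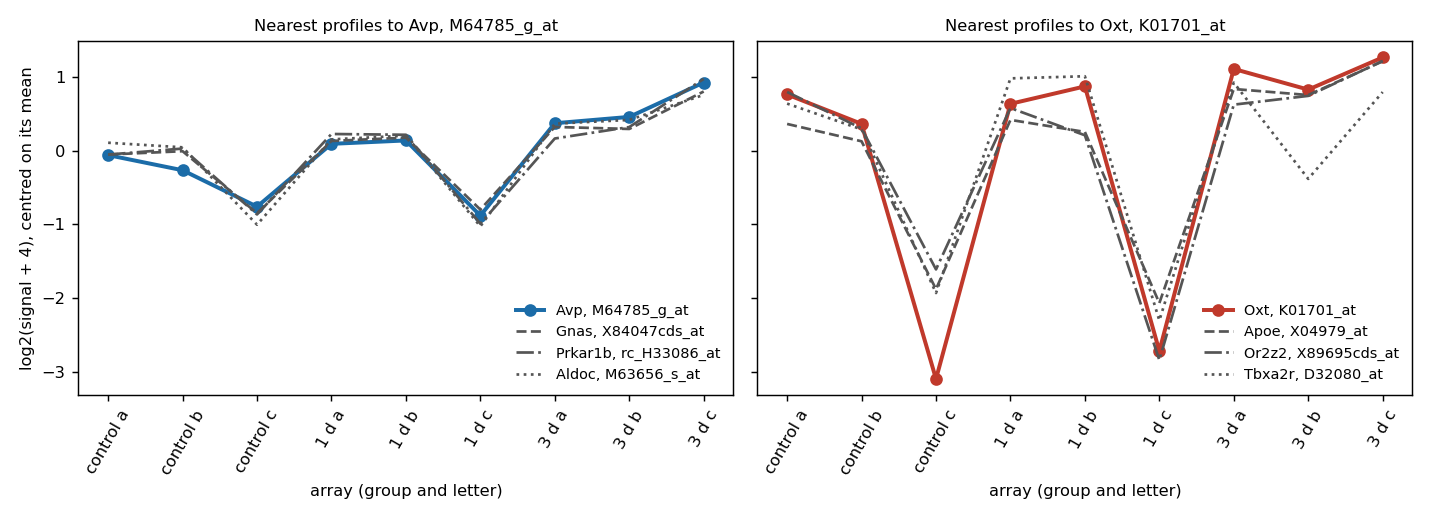
Log2(signal + 4), centred on its own mean, over the 9 arrays for M64785_g_at (left) and the Oxt probe set (right), with the 3 nearest profiles of each (broken lines). Gnas, Prkar1b and Aldoc follow M64785_g_at within a root mean square of 0.12 to 0.16, and the nearest to Oxt, Apoe, is at 0.54.

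Marker lists of the tissue were read beside these values. Besides Avp and Oxt, 6 of 8 magnocellular markers were on the array, all above the filter, and their summed signal was 1546 to 1814 in control, 1761 to 2140 after 1 day and 1819 to 2402 after 3 days. Of 10 astrocyte markers 9 were measured. Their sums were 8381 to 13657 in control, 8523 to 13953 after 1 day and 13809 to 18203 after 3 days. The 3-day sums lay above control by a narrow margin and, unlike M64785_g_at, overlapped those of 1 day. S100b, Glul, Aldoc and Apoe (S76779_s_at) weigh most in these sums. All of these are among the other probe sets in the top 1 percent of mean signal. Of those, 40.7 percent were higher after 3 days than in control with no overlap. The sums of magnocellular and microglia markers also lay above control on each 3-day array, but their members did not move together. From control to 3 days the means of Pdyn, Vgf and Cck rose. Those of Gal (219 to 179), Scg2 (254 to 233) and Pou3f2 (67.5 to 52.1) fell. Ctss, at 993 and 1186, made up most of the microglia sum. C1qb and Fcgr2b also rose, and Aif1, Itgam, Cd74 and Csf1r fell. In the astrocyte list Aqp4 and Gja1 fell and the others rose. On the letter c arrays of control and 1 day the astrocyte sum was the lowest of its group, at 8381 and 8523, as were those of neurons, at 5471 and 5507, of oligodendrocytes, at 4651 and 3756, and of the pituitary, at 174 and 115. Of 8 blood and vessel markers 5 were measured, with sums of 1799 to 1879, 1904 to 2610 and 1077 to 1362. Hbb, at means of 1614, 2064 and 999, made up most of these sums. From control to 3 days the means of Alas2 (97.4 to 77.7) and Flt1 (75.5 to 70.9) also fell. Those of Pecam1 (36.2 to 48.7) and Vwf (11.4 to 17.6, under the filter) rose. Neuron markers in general, 8 of 10, summed to 5471 to 7291, 5507 to 7312 and 6839 to 7775, and oligodendrocyte markers, 7 of 10, to 4651 to 7793, 3756 to 8129 and 3432 to 8025. Microglia, 7 of 8, summed to 1168 to 1272, 1231 to 1868 and 1385 to 1450, and neighbouring hypothalamus, 8 of 10, to 1349 to 3154, 1469 to 2467 and 1339 to 2528; of the latter Vip, a peptide of the suprachiasmatic nucleus, had means of 5.1, 4.3 and 14.0. All 6 pituitary markers were measured and summed to 174 to 223, 115 to 343 and 219 to 235, with Prl, the prolactin gene, at means of 3.8, 8.2 and 6.2. None of these sums was tested against the hormone values, and their part in them was not tested.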

How the data were processed

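The labels give 1-colour Affymetrix arrays of total RNA, and the values deposited by the authors are linear intensities from MAS5, per the submitters' processing notes; the version and genome build are not given in the sources used here. Trimmed means near 100.1 on every array are as a common scaling would give. Of 8740 probe sets that are not controls, 7006 have 1 symbol, 308 several and 1426 none, by a platform annotation that may be old. From the deposited intensities, log2(signal + 4) was computed, probe sets with a mean signal under the 40th percentile (23.1) were left out, and limma 3.58.1 in R 4.3.3 fitted 3 group means to all 9 arrays with an intensity trend in the variance prior, two-sided tests and Benjamini-Hochberg adjustment over 5247 probe sets per comparison, at 0.05. The fit was tested on simulated data. Exact permutation tests used scipy 1.17.1. Genes outside Avp and Oxt were named by a rule: up to 3 per list by the F test's p, and the 3 nearest profiles. The members, lists and settings were chosen with earlier results of these data known. Arrays of the same letter were alike: after subtraction of group means, the 9 pairs of arrays of the same letter had r from 0.17 to 0.47 over tested probe sets, and other pairs -0.33 to 0.12. Because group means were subtracted, a positive r within letters forces a lower r in other pairs. The main fit and the permutation tests did not use the letters, which were tried as a block in an alternative fit. The number of arrays limits the precision, with a median SE of 0.40 in the main fit and 0.30 with the block. Figures were drawn with matplotlib 3.10.9.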

Additional observations from a re-analysis of the deposited data

How the results depend on the processing

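The counts of called probe sets were 0 in each comparison and for the F test under all alternatives run. Of the fixed lists, 0 genes were called after quantile normalization or with the block. The 3-day differences of the 3 tested probe sets kept their sign in all 20 alternatives each, against control and against 1 day. Many of these alternatives cannot move the estimate, so that the sign was fixed in advance there. They are the filters, the variance prior, the block, the fits of only the groups compared, and leaving out an array of the group not compared. The replicate block of letters, which left 4 residual degrees of freedom, changed no call. At 3 days against control M64785_g_at stood at 0.95 ± 0.32 and Oxt at 1.72 ± 0.74 (limma unadjusted p = 0.016 and 0.045, adjusted p = 0.87 for each). The numbers at an unadjusted p under 0.05 rose to 136, 270 and 275 in the comparisons of 1 day with control, 3 days with control and 3 days with 1 day, and to 181 in the F test. Leaving out each array in turn gave 0.75 to 1.10 for M64785_g_at, 0.50 to 2.43 for Oxt and 0.74 to 4.27 for M25646_at at 3 days against control, and 0.47 to 0.98, 0.31 to 2.11 and 0.85 to 5.24 between the times. At 1 day these ranges crossed 0, at -0.054 to 0.48, -0.97 to 1.41 and -2.79 to 2.09, and M64785_g_at stood at -0.019 after quantile normalization. The log2 ratio of M64785_g_at to K01701_at changed by -0.93 to 0.91 at 1 day, -1.34 to 0.24 at 3 days and -1.13 to 0.16 between the times with each array left out, and by 0.088, 0.24 and 0.16 without both c arrays. The ratio of M25646_at to K01701_at ranged from -1.92 to 0.68 at 1 day and from 0.24 to 1.84 at 3 days, with 0.24 without both c arrays. The ratio of M25646_at to M64785_g_at ranged from -2.74 to 1.61 at 1 day and from -0.0062 to 3.18 at 3 days, with -0.0062 without both c arrays. The turn of M64785_g_at under quantile normalization used all 9 arrays and the others came with fewer; beyond that the cause was not tested.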
